A study of Drosophila melanogaster with 58 samples.

Results

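The proteasome subunits of Drosophila melanogaster were described across 12 groups of mushroom body neurons. The members were all rows of the authors' count table whose gene symbol begins with Prosalpha, Prosbeta, or Rpn or Rpt followed by a digit, which gave 38 of 12453 gene symbols. Of these, 16 belong to the core particle (6 alpha ring and 7 beta ring subunits, and 3 variant copies) and 22 to the regulatory particle (6 Rpt and 12 Rpn subunits, and 4 variant copies). The alpha ring subunits were Prosalpha2 to Prosalpha7. No row named Prosalpha1 was found, so the members do not cover the whole ring. A variant copy is a related gene whose symbol carries an R or T suffix, such as Rpt3R or Prosalpha4T1. The other 31 are called standard subunits here. A further 10 symbols in the reference list of gene names match the same pattern and were not analysed here.

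Each of the 58 libraries was made with the Smart-seq2 protocol from 1000 GFP-positive cells sorted from dissected brains. The flies were reared at 25 °C. Gamma neurons gave 5, 5, 5, 3 and 5 libraries at 18, 21, 24, 27 and 30 h after pupa formation and 5 libraries from adults 3 to 5 days after eclosion. Alpha-beta neurons gave 5, 5, 6, 4 and 5 libraries at the same pupal stages and 5 from adults of the same age. All groups share the sorting by GFP, and males and females were taken at random. The driver of the GFP and the number of animals behind each library are not given in the sources used here.

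The proteasome degrades proteins that carry chains of ubiquitin. Its core particle is a barrel of stacked rings: the alpha rings gate the entrance, and the beta rings hold the protease sites, carried by Prosbeta1 (caspase-like), Prosbeta2 (trypsin-like) and Prosbeta5 (chymotrypsin-like). The regulatory particle caps the barrel. Its Rpt subunits form a ring of ATPases that unfolds the substrate, and its Rpn subunits bind ubiquitin, remove it and scaffold the cap. In the mushroom body the ubiquitin-proteasome system is known for its requirement in the pruning of gamma axons during metamorphosis.

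Library totals ran from 4403619 to 27242758 counts. Adult libraries had 5266 to 7464 genes with at least 1 count and pupal libraries 6371 to 8544. Levels of cell type markers were summed in each library. The 8 mushroom body markers (ey, toy, dac, rut, dnc, Fas2, sNPF and mamo) were all in the table. Their summed level was 3287 to 12544 CPM in adult and 2551 to 14336 CPM in pupal libraries. The list is for mushroom body neurons as a whole and no reference level was used, so the sum does not check the gamma or alpha-beta label. CPM are counts relative to library sizes scaled by TMM, the trimmed mean of M-values. Of the other marker lists, 4 general neuron markers summed to 3844 to 7579.8 CPM in adult and 1452 to 3379 CPM in pupal libraries. The 6 glial markers summed to 358 to 2348 CPM in adult and 0.815 to 389 CPM in pupal libraries, although repo, which defines glia, was at 0 in 8 of 10 adult and 18 of 48 pupal libraries. The 4 markers of dopaminergic, other monoaminergic or GABAergic neurons (ple, Vmat, Gad1 and VGAT) summed to 537 to 3324 CPM in adult and 23.7 to 245 CPM in pupal libraries. In adults Gad1 led this sum (median 794 CPM) and in pupae VGAT did (median 67.1 CPM). The 4 neuroblast and newborn neuron markers summed to 0 to 7.41 CPM in adult and 0 to 164 CPM in pupal libraries. Of 3 hemocyte markers 2 were in the table, and they summed to 79.9 to 656 CPM in adult and 51.2 to 445 CPM in pupal libraries, with Hml at 0 in 8 of 10 adult and 35 of 48 pupal libraries. The 5 male germ line markers in the table, of 8 listed, were all at 0 in adult libraries and summed to 0 to 45.98 CPM in pupal libraries.

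Transcripts of all 31 standard subunits were found in every pupal library, and their levels per coding length spanned a range of 15.2-fold. Levels of different genes were compared as CPM per kb of coding sequence, averaged over the 12 group means, with lengths from the reference annotation. The beta ring held the 2 highest levels, 764 CPM per kb for the chymotrypsin-like Prosbeta5 and 652 CPM per kb for Prosbeta3. At the other end were the 2 large scaffold subunits of the cap, Rpn2 with 50.2 and Rpn1 with 90.0 CPM per kb. In the alpha ring the levels ran from 194 CPM per kb for Prosalpha5 to 535 CPM per kb for Prosalpha3. In the beta ring the lowest was Prosbeta2 with 203 CPM per kb, so the trypsin-like and chymotrypsin-like subunits stood at opposite ends of that ring. The Rpt ATPases lay closest together, from 173 CPM per kb for Rpt5 to 340.4 CPM per kb for Rpt3. Among the Rpn subunits Rpn6, which ties the cap to the core particle, was highest with 363 CPM per kb. The median was 333 CPM per kb over the 13 core subunits and 252 CPM per kb over the 18 regulatory subunits. Libraries were primed with oligo-dT, and a bias of counts along long transcripts was not tested.

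**Figure D1:**
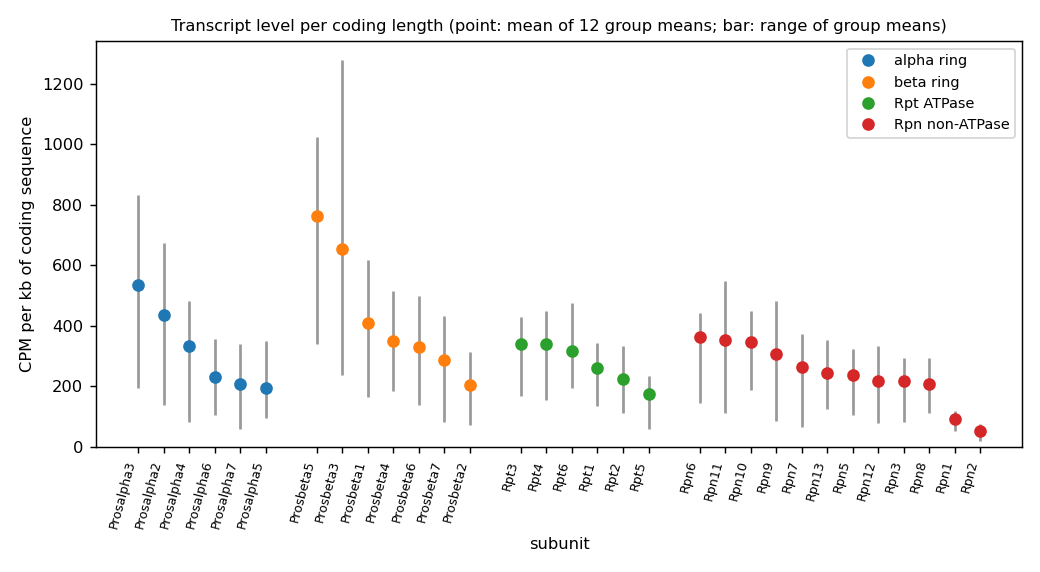
Transcript level of each of the 31 standard subunits, in CPM per kb of coding sequence, grouped by role. Points are means of the 12 group means and bars span the lowest to the highest group mean; Prosbeta5 (764) was highest and Rpn2 (50.2) lowest.

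The summed level of the 31 standard subunits was lower in every adult library than in every pupal library. In gamma neurons it averaged 10873 ± 2825, 10186 ± 3261, 9513 ± 1717, 9398 ± 2069 and 9246 ± 1958 CPM at 18, 21, 24, 27 and 30 h and 4720.1 ± 1119 CPM in adults (SD, n = 5, 5, 5, 3, 5 and 5). In alpha-beta neurons it averaged 13359 ± 3718, 11323 ± 1836, 9680.4 ± 2133, 10108 ± 2367 and 9535 ± 1444 CPM at the same pupal stages and 4338 ± 1045 CPM in adults (SD, n = 5, 5, 6, 4, 5 and 5). Adult libraries ranged from 3136 to 5682 CPM and pupal libraries from 6875 to 17418 CPM, without overlap. As a share of all counts, the subunits took 0.280 to 0.540% in adult and 0.726 to 1.63% in pupal libraries. In such bulk samples, fewer cells of a type and less RNA per cell cannot be told apart.

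Library names end in a sample number, and the labels do not say what it stands for. The numbers fall into 5 runs of 12, called sets here, and each set holds 1 adult and 1 30 h library of each cell type. Pupal libraries differed in the summed level between sets, with medians of 12990, 11352, 8098, 7958 and 10995 CPM in sets 1 to 5. Median library totals in the same sets were 12657200, 11937200, 17111700, 14908100 and 8556030 counts, and their part in these levels was not tested. Within each set the adult level was below the 30 h level. The log2 differences of the summed level, adult minus 30 h, were -1.01, -0.91, -1.12, -0.79 and -1.07 in sets 1 to 5 for gamma neurons. For alpha-beta neurons they were -0.95, -1.04, -1.30, -1.27 and -1.23.

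**Figure D2:**
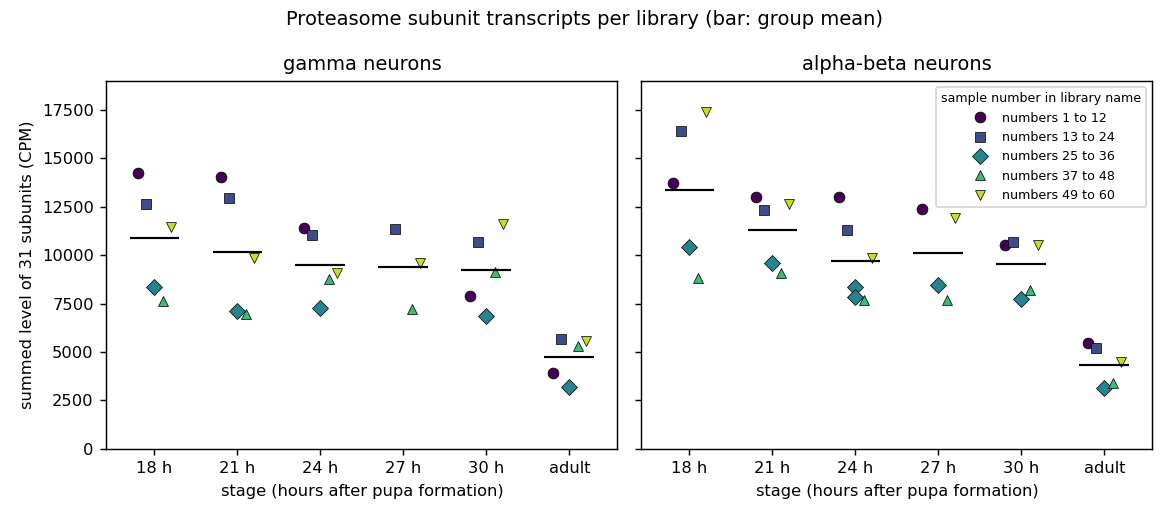
Summed level of the 31 standard subunits (CPM) in each library by stage, for gamma neurons (left) and alpha-beta neurons (right). Points are libraries, symbols the 5 sets of sample numbers and bars group means; the 10 adult libraries sit between 3136 and 5682 CPM, all below the pupal libraries.

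Adults were compared with the last pupal stage, 30 h, in each cell type. In gamma neurons 8 of the 37 members tested fell and 0 rose at an adjusted p under 0.05 by edgeR's quasi-likelihood test with Benjamini-Hochberg (BH) adjustment over 10072 genes, where 5.18% of all genes tested fell and 5.06% rose. In alpha-beta neurons 16 of 37 fell and 0 rose, where 7.8% of all genes tested fell and 4.69% rose. Each member called by edgeR was a standard subunit, while DESeq2 called 12 members in gamma neurons, 1 of them the variant copy Rpn13R as higher, and 20 in alpha-beta neurons. All 31 standard subunits had log2 fold changes below 0 in both cell types, from -1.65 to -0.42 with a median of -0.96 in gamma neurons and from -2.13 to -0.33 with a median of -1.24 in alpha-beta neurons. Over all genes tested the median was -0.07 in gamma and -0.16 in alpha-beta neurons, and 5188 and 5413 of 10072 lay below 0. The core subunits had a median log2 fold change of -0.96 and the regulatory subunits of -0.95 in gamma neurons, against -1.36 and -0.99 in alpha-beta neurons. At an unadjusted p under 0.05 the standard subunits numbered 18 of 31 in gamma and 25 of 31 in alpha-beta neurons, where 27.8% and 30.6% of all genes tested had such a p.

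The calls rested on groups of 5 libraries. In gamma neurons the count was 3 without adult replicate 4 and 5 without 30 h replicate 2, 4 or 5. In alpha-beta neurons it was 9 without 30 h replicate 2. Within sets, 21 of 31 standard subunits were lower in the adult library of all 5 sets in gamma neurons, where 10.2% of all genes tested were, and 25 of 31 in alpha-beta neurons, where 14.2% were. Each of the others was lower in 3 or 4 sets. Against the mean of the 5 pupal groups, 19 members fell in gamma neurons, where 8.82% of all genes tested fell, and 28 fell in alpha-beta neurons, where 12.8% did. The median log2 fold change of the standard subunits was then -1.09 in gamma and -1.42 in alpha-beta neurons, against -0.25 and -0.42 over all genes tested. Of the standard subunits only Rpn12 was called in neither of those 2 comparisons.

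Other values moved with stage. The 8 mushroom body markers summed to 7046 to 12544 CPM in adult gamma libraries, against 5058 to 10204 CPM at 30 h, and to 3287 to 5514 CPM in adult alpha-beta libraries, against 5274 to 9814 CPM at 30 h. In pupae mamo led this sum, with a median of 5600 CPM over pupal and 1398 CPM over adult libraries. The medians of ey, toy and dac were also lower in adults. Those of rut (146 against 11.2 CPM), sNPF (926 against 13.1 CPM), dnc and Fas2 were higher in adults. The 4 general neuron markers summed to 3844 to 6596 CPM in adult gamma libraries, against 1667 to 3379 CPM at 30 h, and to 4216 to 7579.8 CPM in adult alpha-beta libraries, against 2284 to 2814 CPM at 30 h. Of these, nSyb, brp and Syt1 had higher medians in adult than in pupal libraries, and elav a lower one (551 against 658 CPM). The 6 glial markers summed to 358 to 2348 CPM in adult gamma libraries, against 109 to 389 CPM at 30 h, and to 362 to 2318 CPM in adult alpha-beta libraries, against 11.2 to 116 CPM at 30 h. Gs2 carried the adult sum, with a median of 770.2 CPM over adult and 39.3 CPM over pupal libraries, and Eaat1 and alrm also had higher medians in adults. The medians of repo, moody and wrapper were 0 in adults, against 0.675, 0.112 and 13.9 CPM in pupae. The 4 markers of other neurons summed to 564 to 2872 CPM in adult gamma libraries, against 91.8 to 224 CPM at 30 h, and to 537 to 3324 CPM in adult alpha-beta libraries, against 23.7 to 149.7 CPM at 30 h. Fewer genes were detected in adults, 5854 to 7343 in gamma libraries against 6933 to 7948 at 30 h, and 5266 to 7464 in alpha-beta libraries against 7417 to 7822 at 30 h. The part of these markers in the lower subunit levels was not tested. Without the 4 adult libraries with under 6000 genes detected, 2 of each cell type, 5 members fell in gamma neurons (3 of them among the 8) and 12 in alpha-beta neurons (9 of them among the 16). The share of all genes that fell in that fit is not given here.

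In the alpha ring, which gates the core particle, 3 of 6 standard subunits fell in alpha-beta neurons and 0 of 6 passed the threshold in gamma neurons. Prosalpha4 had 36.1, 42.2, 74.8, 32.2 and 114 CPM in adult alpha-beta libraries, against 382, 298, 172, 170.0 and 291 CPM at 30 h. Prosalpha4 fell by 2.13 on the log2 scale (SE 0.43, BH-adjusted p = 0.000247), with all 5 adult values below all 30 h values. In gamma neurons Prosalpha4 had 174, 93.6, 192, 84.1 and 309 CPM in adult libraries, against 174, 334, 153, 229 and 277 CPM at 30 h. The log2 fold change of Prosalpha4, -0.45 (SE 0.41, BH-adjusted p = 0.551), did not pass the threshold, with 2 of 5 adult values below all 30 h values and replicates 1, 3 and 5 overlapping or above them. Prosalpha2 had 115, 173, 50.1, 52.2 and 91.3 CPM in adult alpha-beta libraries, against 271, 367, 281, 289.8 and 308 CPM at 30 h. Prosalpha2 fell by 1.66 on the log2 scale (SE 0.39, BH-adjusted p = 0.00212), with all 5 adult values below all 30 h values. Prosalpha3 had 104, 149, 96.6, 229 and 191 CPM in adult alpha-beta libraries, against 465, 504, 278, 259 and 543 CPM at 30 h. Prosalpha3 fell by 1.41 on the log2 scale (SE 0.40, BH-adjusted p = 0.0111), with all 5 adult values below all 30 h values. For the same subunits in gamma neurons the log2 fold change was -0.96 (SE 0.39, BH-adjusted p = 0.0946) for Prosalpha2 and -0.92 (SE 0.39, BH-adjusted p = 0.112) for Prosalpha3. The most negative alpha ring value in gamma neurons was that of Prosalpha7, -1.30 (SE 0.69, BH-adjusted p = 0.215), and this subunit was at 0 in gamma adult replicate 1. In alpha-beta neurons the value of Prosalpha7 was -1.99 (SE 0.71, BH-adjusted p = 0.0527), with 0 counts in adult replicate 5. The lowest alpha ring subunit per coding length, Prosalpha5, had log2 fold changes of -0.81 (SE 0.50, BH-adjusted p = 0.306) in gamma and -0.88 (SE 0.50, BH-adjusted p = 0.234) in alpha-beta neurons.

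In the beta ring 3 of 7 standard subunits fell in gamma neurons and 4 of 7 in alpha-beta neurons, with Prosbeta1 and Prosbeta6 in both. Prosbeta1, the caspase-like protease subunit, had 85.1, 170.0, 116, 56.4 and 179 CPM in adult gamma libraries, against 248, 309, 238, 279.8 and 368 CPM at 30 h. Prosbeta1 fell by 1.25 on the log2 scale (SE 0.37, BH-adjusted p = 0.0212), with all 5 adult values below all 30 h values. In alpha-beta neurons Prosbeta1 had 68.6, 142, 53.7, 92.0 and 198 CPM in adult libraries, against 345, 360.1, 166, 163 and 391 CPM at 30 h. Prosbeta1 fell by 1.36 on the log2 scale (SE 0.37, BH-adjusted p = 0.00901), with 4 of 5 adult values below all 30 h values and replicate 5 overlapping or above them. Prosbeta5, the chymotrypsin-like subunit, had 169, 265, 228, 99.2 and 681 CPM in adult gamma libraries, against 409, 729.9, 528, 619 and 887 CPM at 30 h. Prosbeta5 fell by 1.14 on the log2 scale (SE 0.39, BH-adjusted p = 0.0498), with 4 of 5 adult values below all 30 h values and replicate 5 overlapping or above them. In alpha-beta neurons Prosbeta5 had 446, 683, 149, 157 and 759 CPM in adult libraries, against 632, 657, 419, 379 and 664 CPM at 30 h. The log2 fold change of Prosbeta5, -0.33 (SE 0.39, BH-adjusted p = 0.654), did not pass the threshold, with 2 of 5 adult values below all 30 h values and replicates 1, 2 and 5 overlapping or above them. The difference between the cell types in the change of Prosbeta5 was -0.81 (SE 0.55, BH-adjusted p = 0.681), which did not pass the threshold.

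Prosbeta2, the trypsin-like subunit, had 62.1, 142, 65.3, 17.4 and 0 CPM in adult gamma libraries, against 156, 178, 146, 141 and 197 CPM at 30 h. The log2 fold change of Prosbeta2, -1.51 (SE 0.55, BH-adjusted p = 0.0635), did not pass the threshold, with 4 of 5 adult values below all 30 h values and replicate 2 overlapping or above them. In alpha-beta neurons Prosbeta2 had 80.3, 97.0, 22.1, 66.1 and 63.4 CPM in adult libraries, against 188, 179, 103, 126 and 167 CPM at 30 h. The log2 fold change of Prosbeta2, -1.21 (SE 0.54, BH-adjusted p = 0.12), did not pass the threshold, with all 5 adult values below all 30 h values. The remaining beta ring calls were of subunits without a protease site. Prosbeta6 had 162, 124, 163, 72.9 and 61.2 CPM in adult gamma libraries, against 124, 340.1, 248, 329 and 286 CPM at 30 h. Prosbeta6 fell by 1.19 on the log2 scale (SE 0.37, BH-adjusted p = 0.0299), with 2 of 5 adult values below all 30 h values and replicates 1, 2 and 3 overlapping or above them. In alpha-beta neurons Prosbeta6 had 202, 35.3, 49.8, 108 and 84.7 CPM in adult libraries, against 185, 273, 235, 194 and 245 CPM at 30 h. Prosbeta6 fell by 1.24 on the log2 scale (SE 0.37, BH-adjusted p = 0.0191), with 4 of 5 adult values below all 30 h values and replicate 1 overlapping or above them. Prosbeta3 had 103, 173, 37.3, 142 and 274 CPM in adult alpha-beta libraries, against 329, 479.5, 277, 209.9 and 450.2 CPM at 30 h. Prosbeta3 fell by 1.26 on the log2 scale (SE 0.43, BH-adjusted p = 0.0427), with 4 of 5 adult values below all 30 h values and replicate 5 overlapping or above them. Prosbeta7 had 102, 115, 53.8, 51.2 and 0.923 CPM in adult alpha-beta libraries, against 232, 316, 103, 170.0 and 249.6 CPM at 30 h. Prosbeta7 fell by 1.73 on the log2 scale (SE 0.53, BH-adjusted p = 0.0209), with 4 of 5 adult values below all 30 h values and replicate 2 overlapping or above them.

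Several beta ring calls depended on 1 library. In gamma neurons Prosbeta1 missed the threshold without gamma adult replicate 1 or 4 or gamma 30 h replicate 5 (adjusted p up to 0.0707). Prosbeta5 missed the threshold without gamma adult replicate 1, 2, 3 or 4 or gamma 30 h replicate 2, 3, 4 or 5 (adjusted p up to 0.133). Prosbeta6 missed the threshold without gamma adult replicate 4 or 5 or gamma 30 h replicate 2 or 4 (adjusted p up to 0.0863). In alpha-beta neurons Prosbeta3 missed the threshold without alpha-beta adult replicate 1, 2, 3 or 4 or alpha-beta 30 h replicate 1, 2 or 5 (adjusted p up to 0.115). Prosbeta6 missed the threshold without alpha-beta adult replicate 2 or 3 (adjusted p up to 0.0683). Prosbeta7 missed the threshold without alpha-beta 30 h replicate 2 (adjusted p up to 0.058). The alpha-beta call of Prosbeta1, and those of Prosalpha2, Prosalpha3 and Prosalpha4, passed the threshold with each of the 10 libraries left out in turn.

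Of the 6 standard Rpt subunits, the ATPases that unfold substrates, 2 fell in gamma and 3 in alpha-beta neurons, with Rpt2 and Rpt3 in both. Rpt2 had 72.1, 187, 229, 139 and 112 CPM in adult gamma libraries, against 344, 406, 202, 291 and 214 CPM at 30 h. Rpt2 fell by 0.98 on the log2 scale (SE 0.31, BH-adjusted p = 0.0309), with 4 of 5 adult values below all 30 h values and replicate 3 overlapping or above them. In alpha-beta neurons Rpt2 had 257, 154, 95.2, 199 and 87.0 CPM in adult libraries, against 339.6, 364, 272, 279 and 291 CPM at 30 h. Rpt2 fell by 0.97 on the log2 scale (SE 0.31, BH-adjusted p = 0.0286), with all 5 adult values below all 30 h values. Rpt3, the highest Rpt subunit per coding length, had 282, 375, 97.6, 167 and 165 CPM in adult gamma libraries, against 638, 386, 244, 461 and 502 CPM at 30 h. Rpt3 fell by 1.04 on the log2 scale (SE 0.34, BH-adjusted p = 0.0415), with 3 of 5 adult values below all 30 h values and replicates 1 and 2 overlapping or above them. In alpha-beta neurons Rpt3 had 389.7, 359, 105, 78.6 and 97.8 CPM in adult libraries, against 565, 471, 297, 383 and 439 CPM at 30 h. Rpt3 fell by 1.06 on the log2 scale (SE 0.35, BH-adjusted p = 0.0312), with 3 of 5 adult values below all 30 h values and replicates 1 and 2 overlapping or above them. Rpt4 had 202, 64.0, 169, 152 and 332 CPM in adult alpha-beta libraries, against 411, 383, 438, 298 and 697 CPM at 30 h. Rpt4 fell by 1.28 on the log2 scale (SE 0.35, BH-adjusted p = 0.00846), with 4 of 5 adult values below all 30 h values and replicate 5 overlapping or above them. Rpt5, the lowest Rpt subunit per coding length, had the most negative Rpt value in gamma neurons, -1.65 (SE 0.65, BH-adjusted p = 0.0876), with 0 counts in gamma adult replicates 1 and 5. In alpha-beta neurons its log2 fold change was -0.80 (SE 0.64, BH-adjusted p = 0.446). In gamma neurons Rpt2 missed the threshold without gamma adult replicate 1, 4 or 5 or gamma 30 h replicate 1 or 2 (adjusted p up to 0.0963). Rpt3 missed the threshold without gamma adult replicate 3, 4 or 5 or gamma 30 h replicate 1, 4 or 5 (adjusted p up to 0.111). In alpha-beta neurons Rpt2 missed the threshold without alpha-beta adult replicate 3 or 5 or alpha-beta 30 h replicate 2 (adjusted p up to 0.0816). Rpt3 missed the threshold without alpha-beta adult replicate 3, 4 or 5 or alpha-beta 30 h replicate 1 or 2 (adjusted p up to 0.0907). Rpt4 passed with each library left out.

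Of the 12 standard Rpn subunits 3 fell in gamma neurons and 6 in alpha-beta neurons, with Rpn3, Rpn5 and Rpn6 in both. These 3 are scaffold subunits of the lid, the part of the cap that holds the deubiquitinase Rpn11. Rpn6 had 201, 258, 306, 272 and 116 CPM in adult gamma libraries, against 536, 642, 312, 359 and 734 CPM at 30 h. Rpn6 fell by 1.16 on the log2 scale (SE 0.23, BH-adjusted p = 0.000281), with all 5 adult values below all 30 h values. In alpha-beta neurons Rpn6 had 126, 195, 153, 217 and 255 CPM in adult libraries, against 526, 614, 504, 584 and 484 CPM at 30 h. Rpn6 fell by 1.52 on the log2 scale (SE 0.23, BH-adjusted p = 2.38e-06), with all 5 adult values below all 30 h values. Rpn5 had 154, 156, 230.4, 60.8 and 189 CPM in adult gamma libraries, against 447, 385, 273, 348 and 705 CPM at 30 h. Rpn5 fell by 1.45 on the log2 scale (SE 0.28, BH-adjusted p = 0.000153), with all 5 adult values below all 30 h values. In alpha-beta neurons Rpn5 had 245, 154, 126, 127 and 176 CPM in adult libraries, against 300.1, 304, 406, 232 and 236 CPM at 30 h. Rpn5 fell by 0.84 on the log2 scale (SE 0.27, BH-adjusted p = 0.032), with 4 of 5 adult values below all 30 h values and replicate 1 overlapping or above them. Rpn3 had 127, 216, 134, 24.8 and 99.7 CPM in adult gamma libraries, against 167, 398, 248, 383 and 343 CPM at 30 h. Rpn3 fell by 1.36 on the log2 scale (SE 0.37, BH-adjusted p = 0.0113), with 4 of 5 adult values below all 30 h values and replicate 2 overlapping or above them. In alpha-beta neurons Rpn3 had 182, 48.1, 74.3, 311 and 102 CPM in adult libraries, against 363, 422, 368, 391 and 350.0 CPM at 30 h. Rpn3 fell by 1.40 on the log2 scale (SE 0.37, BH-adjusted p = 0.00701), with all 5 adult values below all 30 h values. The difference between the cell types in the change of Rpn5 was -0.61 (SE 0.38, BH-adjusted p = 0.615). With each library left out in turn, the calls of Rpn3 and Rpn6 held in both cell types and that of Rpn5 in gamma neurons. In alpha-beta neurons Rpn5 missed the threshold without alpha-beta adult replicate 2, 3 or 4 or alpha-beta 30 h replicate 2 or 3 (adjusted p up to 0.105).

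The other 3 Rpn calls were in alpha-beta neurons. Rpn9, a further lid subunit, had 123, 83.7, 83.0, 22.2 and 169 CPM in adult alpha-beta libraries, against 529, 334, 252, 299 and 449 CPM at 30 h. Rpn9 fell by 1.96 on the log2 scale (SE 0.41, BH-adjusted p = 0.000405), with all 5 adult values below all 30 h values. Rpn7, also of the lid, had 174, 0, 123, 40.5 and 38.3 CPM in adult alpha-beta libraries, against 377, 287, 235, 293 and 388 CPM at 30 h. Rpn7 fell by 2.07 on the log2 scale (SE 0.70, BH-adjusted p = 0.0387), with all 5 adult values below all 30 h values. Rpn11, the deubiquitinase that releases ubiquitin chains from substrates, had 287, 57.1, 134, 31.5 and 0 CPM in adult alpha-beta libraries, against 346, 448, 203, 251 and 317 CPM at 30 h. Rpn11 fell by 1.62 on the log2 scale (SE 0.56, BH-adjusted p = 0.0461), with 4 of 5 adult values below all 30 h values and replicate 1 overlapping or above them. Rpn9 passed with each library left out. Rpn7 missed the threshold without alpha-beta adult replicate 4 or 5 or alpha-beta 30 h replicate 1, 2, 4 or 5 (adjusted p up to 0.0859). Rpn11 missed the threshold without alpha-beta adult replicate 2 or 4 or alpha-beta 30 h replicate 1, 2, 4 or 5 (adjusted p up to 0.112). In gamma neurons the log2 fold change was -0.99 (SE 0.40, BH-adjusted p = 0.0927) for Rpn9, -0.89 (SE 0.68, BH-adjusted p = 0.437) for Rpn7 and -0.89 (SE 0.55, BH-adjusted p = 0.307) for Rpn11. The ubiquitin receptors Rpn10 and Rpn13 had log2 fold changes of -0.59 (SE 0.36, BH-adjusted p = 0.3) and -0.92 (SE 0.36, BH-adjusted p = 0.087) in gamma neurons, and of -0.82 (SE 0.36, BH-adjusted p = 0.114) and -0.74 (SE 0.36, BH-adjusted p = 0.152) in alpha-beta neurons, none past the threshold in this fit. For the scaffold Rpn2 the log2 fold change was -0.42 (SE 0.71, BH-adjusted p = 0.824) in gamma and -1.45 (SE 0.73, BH-adjusted p = 0.165) in alpha-beta neurons.

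The remaining standard subunits passed the threshold in neither cell type in the 12-group fit. With the set of sample numbers as a block, Rpt1, Rpn10 and Rpn13 passed in both cell types (adjusted p = 0.0112, 0.0467 and 0.0207 in gamma and 0.0171, 0.0148 and 0.0229 in alpha-beta neurons). In that fit Rpn1 (adjusted p = 0.0143) and Rpn8 (adjusted p = 0.0138) also passed in alpha-beta neurons, and Prosalpha2, Prosalpha3, Prosbeta2, Prosbeta3 and Rpn9 in gamma neurons (adjusted p = 0.0175 to 0.0425). The share of all genes that passed with this block is not given here. With it the median log2 fold change over all genes was -0.20 in gamma and -0.31 in alpha-beta neurons, against -0.07 and -0.16 without it. Prosalpha6 had log2 fold changes of -0.88 (SE 0.55, BH-adjusted p = 0.31) in gamma and -1.44 (SE 0.55, BH-adjusted p = 0.0746) in alpha-beta neurons. In the beta ring Prosbeta4 had -0.53 (SE 0.42, BH-adjusted p = 0.463) and -0.68 (SE 0.42, BH-adjusted p = 0.281) in gamma and alpha-beta neurons. Of the ATPases, Rpt1 had -1.04 (SE 0.37, BH-adjusted p = 0.0559) in gamma and -0.83 (SE 0.36, BH-adjusted p = 0.112) in alpha-beta neurons. For Rpt6 the values were -0.58 (SE 0.31, BH-adjusted p = 0.226) in gamma and -0.65 (SE 0.32, BH-adjusted p = 0.149) in alpha-beta neurons. The scaffold Rpn1 had -0.70 (SE 0.42, BH-adjusted p = 0.289) in gamma and -1.01 (SE 0.42, BH-adjusted p = 0.101) in alpha-beta neurons. Rpn8, the partner of Rpn11, had -0.55 (SE 0.34, BH-adjusted p = 0.306) in gamma and -0.93 (SE 0.34, BH-adjusted p = 0.0622) in alpha-beta neurons. Rpn12 of the lid had -1.33 (SE 0.74, BH-adjusted p = 0.245) in gamma and -0.91 (SE 0.74, BH-adjusted p = 0.45) in alpha-beta neurons, with 0 counts in gamma adult replicate 3 and alpha-beta adult replicate 4.

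**Figure D3:**
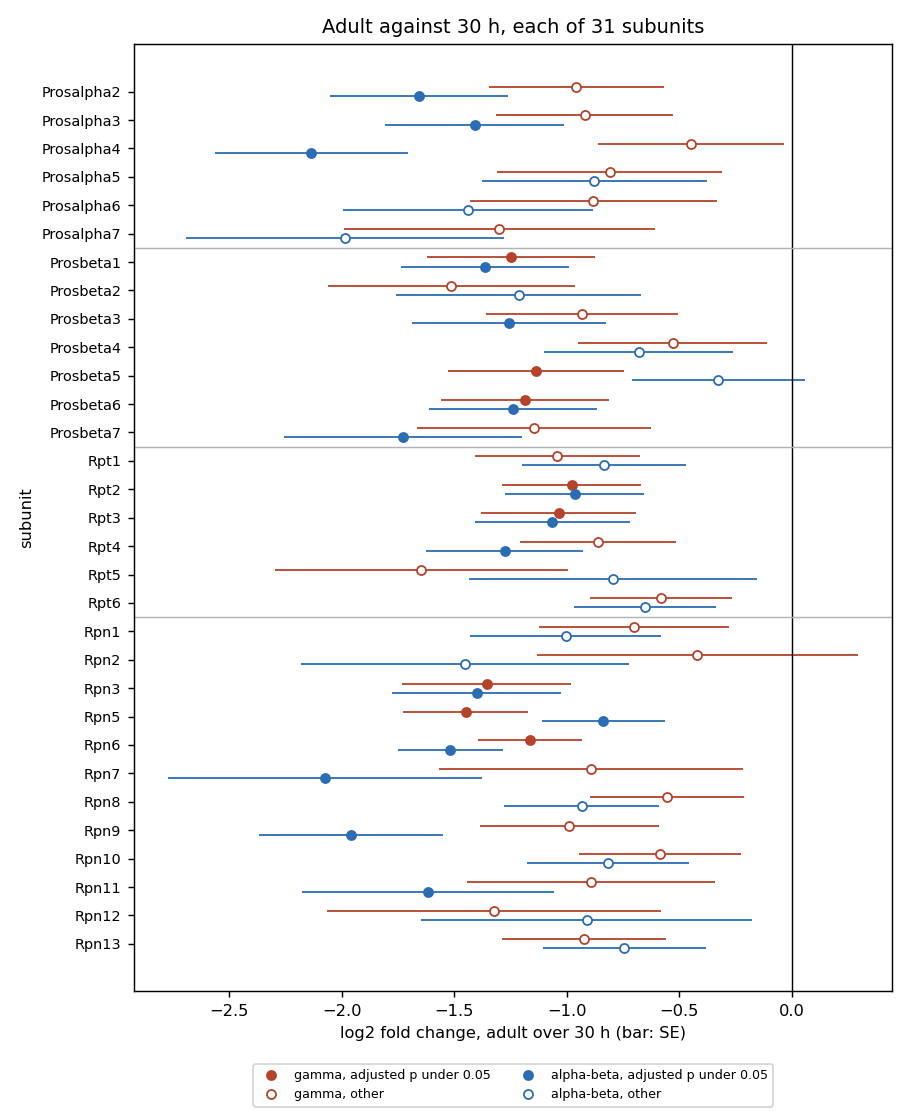
Log2 fold change of each standard subunit, adult over 30 h, in gamma (red) and alpha-beta neurons (blue). Horizontal bars are SE and filled points have an adjusted p under 0.05, 8 in gamma and 16 in alpha-beta neurons; every point lies below 0.

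The 2 cell types shared 7 called members, Prosbeta1, Prosbeta6, Rpn3, Rpn5, Rpn6, Rpt2 and Rpt3, which were 87.5% of the 8 in gamma and 43.75% of the 16 in alpha-beta neurons. The same overlap over all genes called is not given here, so these shares are not shown to be particular to the members. Values of all 5 adult libraries lay below all 5 libraries at 30 h for 5 of 31 standard subunits in gamma neurons, where this was so for 4.44% of all genes tested, and for 9 of 31 in alpha-beta neurons, where the share was 6.51%. The difference between the cell types in the change, adult against 30 h, passed the threshold for 0 of 37 members by edgeR, where 0.665% of all genes passed. Only Prosalpha4 (1 of 37, against 11.9% of all genes) had an unadjusted p under 0.05, DESeq2 called 0 and limma-voom called 0. Across the 31 standard subunits, the log2 fold changes of gamma and alpha-beta neurons had a Pearson correlation of -0.03, a description over genes that are not independent replicates.

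Among adults the order of the subunits was less alike than among pupae. The Spearman correlation of CPM per kb over 31 subunits between gamma and alpha-beta neurons was 0.735 in adults and 0.941 in pupae, and these points share libraries and coding lengths. Between adult and pupal means it was 0.901 in gamma and 0.692 in alpha-beta neurons. Zeros were found in adults: 13 of 310 adult values of standard subunits were 0, against 0 of 1488 pupal values. They lay in 6 of the 10 adult libraries. Gamma adult replicate 1 held 5 of them (Prosalpha6, Prosalpha7, Rpn2, Rpn7 and Rpt5) and alpha-beta adult replicate 5 held 3 (Prosalpha7, Rpn2 and Rpn11). Gamma adult replicate 5 had 2 (Prosbeta2 and Rpt5). Genes detected numbered 5956, 5266 and 5854 in these libraries, in that order, against medians of 6268.5 over adult and 7570 over pupal libraries. The share of zeros over all genes is not given here, so the zeros are not shown to be particular to the subunits. A count of 0 allows up to 3 counts of the library total, and this limit takes in counting error alone, because amplified reads that carry no molecular barcode cannot be counted as separate molecules. The adult means rest on 5 libraries per cell type and the pupal means on 23 and 25.

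The ratio of core to regulatory transcripts, taken per library as the median CPM per kb of core over that of regulatory subunits, had a median of 1.27 over the 58 libraries. That median depended on the measure. It was 0.729 without dividing by length and 1.07 with sums of CPM per kb in place of medians. By the first measure the ratio ranged from 0.994 to 3.09 in gamma adults, against 0.928 to 1.84 at 30 h. In alpha-beta neurons it ranged from 0.774 to 2.18 in adults, against 0.950 to 1.42 at 30 h. Over all pupal libraries the range was 0.928 to 1.84. Adult libraries thus held both the lowest and the highest value. The highest, 3.09, was in gamma adult replicate 5, a library with 5854 genes detected and the lowest TMM factor (0.743). What set the ratio in this library was not tested.

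**Figure D4:**
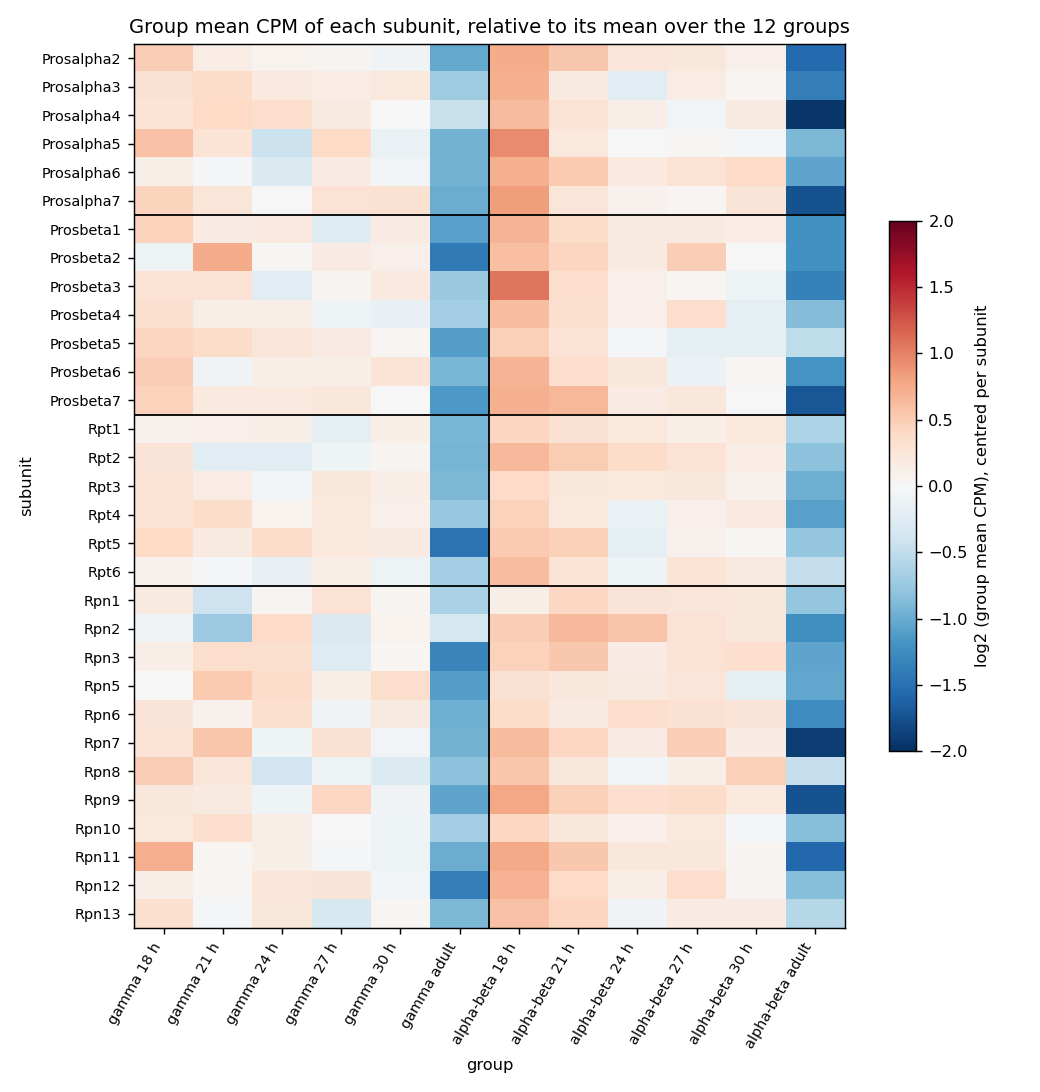
Group mean CPM of each standard subunit on a log2 scale, centred on that subunit's mean over the 12 groups, by stage in gamma (left) and alpha-beta neurons (right). Blue is below and red above the subunit's own mean; the adult columns are blue for all 31 subunits in both cell types.

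Between 18 and 30 h no member passed the test for a linear trend. In gamma neurons 0 of 37 members were called by edgeR, where 0.109% of all genes were, with 3 of 37 at an unadjusted p under 0.05 (9.08% of all genes), 1 by DESeq2 and 0 by limma-voom. In alpha-beta neurons 0 were called, where 0.208% of all genes were, with 4 of 37 at an unadjusted p under 0.05 (8.74% of all genes), 0 by DESeq2 and 1 by limma-voom. Those at an unadjusted p under 0.05 were Rpn8, Rpn13R and Rpt4R in gamma neurons and Prosbeta3, Prosbeta5, Prosbeta6 and Rpt3R in alpha-beta neurons, shares near those of all genes, and Rpn8 is named because of that value. The DESeq2 call in gamma neurons was the variant copy Rpn13R, and the limma-voom call in alpha-beta neurons was Prosbeta3. Fitted log2 changes over 12 h lay below 0 for 28 of 31 standard subunits in gamma neurons, with a median of -0.16, and for 30 of 31 in alpha-beta neurons, with a median of -0.49. Over all genes tested the medians were 0.000476 in gamma and -0.09 in alpha-beta neurons. The difference of the trends passed for 0 of 37 members, where 0.0% of all genes passed, with 1 of 37 at an unadjusted p under 0.05 (Rpn13R; 5.48% of all genes) and 0 by DESeq2 and by limma-voom.

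The lowest unadjusted p of a standard subunit was that of Prosbeta3 in alpha-beta neurons, whose fitted change over 12 h was -1.06 (SE 0.39, BH-adjusted p = 0.286) by edgeR. It averaged 785 ± 377, 477 ± 183, 401 ± 173, 385 ± 138 and 349 ± 114 CPM at 18, 21, 24, 27 and 30 h (SD, n = 5, 5, 6, 4 and 5). The means were highest at 18 h, and the spread at that stage overlapped the later ones. In gamma neurons Prosbeta3 averaged 455 ± 181, 454 ± 176, 321 ± 137, 388 ± 126 and 428 ± 192 CPM at the same stages (SD, n = 5, 5, 5, 3 and 5), and its fitted change was -0.16 (SE 0.39, BH-adjusted p = 1). By set, the summed level of all standard subunits at 30 h minus 18 h was -0.86, -0.24, -0.28, 0.26 and 0.02 on the log2 scale in sets 1 to 5 of gamma neurons. In alpha-beta neurons it was -0.38, -0.62, -0.43, -0.10 and -0.73, below 0 in all 5 sets.

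The 3 protease subunits had these levels through the pupal stages. Prosbeta1 averaged 357 ± 157, 289 ± 146, 295 ± 56.1, 219 ± 54.9 and 289 ± 52.3 CPM at 18, 21, 24, 27 and 30 h in gamma neurons, and 121 ± 53.2 CPM in adults. In alpha-beta neurons Prosbeta1 averaged 414 ± 198, 333 ± 79.2, 292 ± 94.9, 292 ± 96.9 and 285 ± 111 CPM, and 111 ± 59.1 CPM in adults. Its adult means were the lowest of each cell type. Prosbeta2 averaged 142 ± 49.8, 255 ± 115, 156 ± 57.3, 171 ± 56.3 and 164 ± 23.6 CPM in gamma pupae and 57.3 ± 54.9 CPM in adults. In alpha-beta neurons Prosbeta2 averaged 233 ± 87.7, 206 ± 37.6, 174 ± 59.5, 215 ± 87.4 and 153 ± 36.4 CPM in pupae and 65.8 ± 27.9 CPM in adults. Here too the adult means were lowest, and the gamma mean was highest at 21 h. Prosbeta5 averaged 836 ± 366, 805 ± 279, 733 ± 257, 698 ± 209 and 635 ± 184 CPM in gamma pupae and 288 ± 228 CPM in adults. In alpha-beta neurons Prosbeta5 averaged 866 ± 319.6, 751 ± 138, 608 ± 271, 546 ± 129.8 and 550.4 ± 139 CPM in pupae and 439 ± 285 CPM in adults. Errors are SD over the 3 to 6 libraries of each group.

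Gamma and alpha-beta neurons were compared over the 5 pupal stages pooled with equal weight. By edgeR 0 of 37 members passed the threshold, where 6.27% of all genes did, with 2 of 37 at an unadjusted p under 0.05 (1407 of 10072 over all genes), 3 called by DESeq2 and 2 by limma-voom. The standard subunits had a median log2 fold change of -0.18, gamma over alpha-beta, with 25 of 31 below 0, against a median of -0.04 over all genes tested. The lowest adjusted p of a standard subunit was that of Rpt2, with a log2 fold change of -0.43 (SE 0.14, BH-adjusted p = 0.0615). Rpt2 averaged 336 ± 103, 243 ± 105, 241 ± 43.2, 265 ± 106 and 291 ± 86.5 CPM at 18, 21, 24, 27 and 30 h in gamma neurons, against 439 ± 92.6, 397 ± 47.8, 361 ± 84.5, 341 ± 129 and 309 ± 40.3 CPM in alpha-beta neurons (SD over 3 to 6 libraries). Its gamma mean was the lower one at each stage. Rpt2 passed by DESeq2 (adjusted p = 0.0169) and by limma-voom (adjusted p = 0.00262). By edgeR it passed with the replicate number (adjusted p = 0.0168) or the set of sample numbers (adjusted p = 0.014) as a block. It passed likewise when only the groups compared were fitted (adjusted p = 0.0218). With RLE scaling or without the filter on low counts it was not called. It also passed by edgeR without any 1 of alpha-beta 18 h replicate 4, 24 h replicate 6 and 27 h replicate 5, or of gamma 18 h replicate 2, 21 h replicates 1 and 2, 24 h replicate 3, 27 h replicate 2 and 30 h replicate 2 (adjusted p down to 0.0305).

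In the other roles the values farthest from 0 were -0.44 (SE 0.25, BH-adjusted p = 0.5) for Prosalpha6 of the alpha ring, -0.18 (SE 0.19, BH-adjusted p = 1) for Prosbeta4 of the beta ring and -0.57 (SE 0.33, BH-adjusted p = 0.524) for the scaffold Rpn2. At each pupal stage alone, 0 of 37 members passed by edgeR, where 0.238, 0.0993, 0.169, 0.0 and 0.208% of all genes passed at 18, 21, 24, 27 and 30 h. The standard subunits at an unadjusted p under 0.05 numbered 0, 1, 0, 0 and 2 of 31 at these stages, against 12.3, 12.5, 12.3, 6.69 and 11.8% of all genes tested. Over all 37 members the numbers were 2, 4, 3, 1 and 7, which was 18.9% at 30 h. The variant copies among them numbered 2, 3, 3, 1 and 5 of 6, and most values of these copies were 0.

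In adults 1 of 37 members differed between the cell types, where 2.11% of all genes tested were higher and 1.49% lower in gamma neurons. Prosalpha4 of the alpha ring had 174, 93.6, 192, 84.1 and 309 CPM in adult gamma libraries, against 36.1, 42.2, 74.8, 32.2 and 114 CPM in adult alpha-beta libraries. The ranges overlapped, since 2 gamma values lay below the highest alpha-beta value. Prosalpha4 was higher in gamma adults by 1.51 on the log2 scale (SE 0.42, BH-adjusted p = 0.029 by edgeR's quasi-likelihood test). It missed the threshold without gamma adult replicate 3 or 5 or alpha-beta adult replicate 1, 2 or 4 (adjusted p up to 0.124). DESeq2 called Prosalpha4 and the variant copy Rpt6R, and limma-voom called 0. Without the 4 adult libraries with under 6000 genes detected 0 members were called, and likewise when only the adult groups were fitted. In pupae the pooled log2 fold change of Prosalpha4 was 0.01 (SE 0.19).

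Transcripts of the 7 variant copies were rare, with 322 of 406 values (79.3%) at 0. They made up 0 to 1.35% of all proteasome CPM per library, with a median of 0.0833%. In Drosophila several such copies are known from the male germ line, whose 5 markers in the table summed to at most 45.98 CPM. How reads shared between a copy and its parental gene were counted is not given in the sources used here. Rpn13R, a copy of the ubiquitin receptor Rpn13, was the most widespread, with more than 3 counts in 37 of 58 libraries, 13 of 28 from gamma and 24 of 30 from alpha-beta neurons. Its highest count was 687, in gamma 21 h replicate 4, and in adults it reached 484 and 487 counts in alpha-beta replicates 3 and 4. Per coding length Rpn13R averaged 7.45 CPM per kb over the 12 groups, against 243 CPM per kb for Rpn13. Rpt6R exceeded 3 counts in 14 libraries, 3 from gamma and 11 from alpha-beta neurons, with 545 counts in alpha-beta adult replicate 2 and 0 in the other 9 adult libraries.

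Rpt3R was found in alpha-beta pupae alone, with more than 3 counts in 6 of 25 libraries (up to 192 in 24 h replicate 3) and 0 counts in all 28 gamma libraries. The same gene passed the pooled pupal comparison by DESeq2 and by limma-voom but not by edgeR, and Rpt6R had an adjusted p of 0.0598 by edgeR, which was 0.0267 without gamma 18 h replicate 1 and 0.0123 without gamma 24 h replicate 1. Prosbeta2R1 exceeded 3 counts in 6 libraries, 2 from gamma and 4 from alpha-beta pupae (up to 319). Prosalpha4T1 did so in 5 libraries (up to 103), Rpt4R in 4 (up to 108) and Prosbeta5R1 in 3 (up to 60). In these 4 genes each group with a count above 3 also held at least 1 library at 0. Of the 7 copies 6 passed the filter on low counts and in the 12-group fit by edgeR 0 of them was called in any of the 8 comparisons. With the replicate number as a block, Rpt6R was called in gamma against alpha-beta pupae (adjusted p = 0.00525), and with the set of sample numbers as a block likewise (adjusted p = 0.0406). In adults against 30 h DESeq2 called Rpn13R as higher in gamma neurons (adjusted p = 0.00687, against 0.0802 by edgeR), where it had 0, 0, 0, 195 and 2 counts in adult libraries, against 0, 0, 0, 2 and 0 counts at 30 h. DESeq2 also called Prosbeta2R1 as lower in alpha-beta neurons (adjusted p = 0.0204, against 0.181 by edgeR), where it was at 0 in all 5 adult libraries and in 4 of 5 libraries at 30 h.

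**Figure D5:**
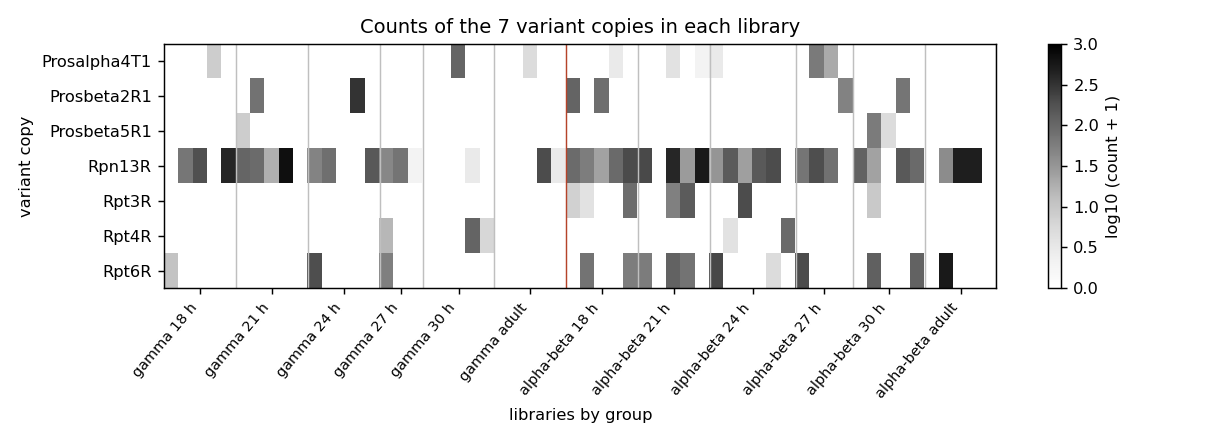
Counts of the 7 variant copies in each of the 58 libraries, as log10 (count + 1), with gamma libraries left and alpha-beta libraries right of the coloured line. White cells are 0 (322 of 406); Rpn13R has the most filled cells.

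A list of 24 other genes of the pathway, all tested, held assembly factors, regulators, ubiquitin genes and factors that deliver substrates. In adults against 30 h, 2 of 24 fell and 1 rose in gamma neurons, with a median log2 fold change of -0.22, and 6 fell and 1 rose in alpha-beta neurons, with a median of -0.67. Over all genes tested 5.18% fell and 5.06% rose in gamma neurons, near the shares of the list, and 7.8% fell and 4.69% rose in alpha-beta neurons. Uch-L5, a deubiquitinase of the regulatory particle, fell in both, by 1.68 (SE 0.47, BH-adjusted p = 0.0123) on the log2 scale in gamma and 1.87 (SE 0.47, BH-adjusted p = 0.00388) in alpha-beta neurons. In gamma neurons Npl4, a cofactor of the segregase TER94, fell by 1.52 (SE 0.46, BH-adjusted p = 0.0214). In alpha-beta neurons TER94 itself fell by 2.06 (SE 0.71, BH-adjusted p = 0.0461), and Uba1, the enzyme that activates ubiquitin, fell by 1.49 (SE 0.41, BH-adjusted p = 0.00959). Of the ubiquitin genes, Ubi-p63E fell by 1.43 (SE 0.40, BH-adjusted p = 0.00941), RpL40 fell by 1.33 (SE 0.25, BH-adjusted p = 7.87e-05) and RpS27A fell by 1.09 (SE 0.38, BH-adjusted p = 0.0438) in alpha-beta neurons. Ubi-p5E rose in gamma neurons, by 1.14 (SE 0.33, BH-adjusted p = 0.0163). These 4 genes share the ubiquitin coding sequence, so their counts are uncertain where reads could be split between them. The small Maf protein maf-S, a partner of the stress factor cnc, rose in alpha-beta neurons by 1.47 (SE 0.41, BH-adjusted p = 0.00965). For the chaperone of core assembly, Pomp, the log2 fold change was -0.43 (SE 0.37, BH-adjusted p = 0.518) in gamma and -0.17 (SE 0.37, BH-adjusted p = 0.866) in alpha-beta neurons, neither past the threshold.

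Between the cell types in pupae 0 of the 24 were higher and 1 lower in gamma neurons, where 6.27% of all genes passed. The gene was Ubi-p5E with a log2 fold change of -1.30 (SE 0.16, BH-adjusted p = 2.26e-08). In adults, where 2.11% of all genes were higher and 1.49% lower in gamma neurons, 1 of 24 was higher, RpL40 with 1.25 (SE 0.25, BH-adjusted p = 0.00117), and 1 lower, Ubi-p5E with -1.14 (SE 0.33, BH-adjusted p = 0.0371). The trends between 18 and 30 h, their difference, and the difference of the adult against 30 h changes called 0 of 24 by edgeR, with 2 at an unadjusted p under 0.05 for the alpha-beta trend and 2 for the difference of the changes.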

How the data were processed

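Smart-seq2 libraries of sorted mushroom body neurons were analysed from 1 table of raw read counts per gene symbol, deposited by the authors, per the file headers. STAR is named in the submitters' processing notes, and the counting program, genome build, annotation and strand setting are not given in the sources used here. The table's normalized and variance-stabilised columns and the authors' own comparisons were not used here. All 58 count columns were matched to samples by the labels, and 0 columns were left without a sample. How reads shared between near-identical genes were counted is likewise not given.

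Counts were fitted in edgeR 4.0.16 (R 4.3.3) with a quasi-likelihood model of 12 groups, after a filter on low counts (filterByExpr, minimum count 10, minimum total 15) that kept 10072 of 12453 genes and 37 of 38 members. Library sizes were scaled by TMM (factors 0.743 to 1.08), and CPM are computed from these sizes. P-values were adjusted by Benjamini-Hochberg over all genes tested, with a threshold of 0.05, and SE was taken from the fold change and its F statistic. The common biological coefficient of variation was 1.34. Alternatives were DESeq2 1.42.0, limma-voom with sample weights (limma 3.58.1), RLE scaling, no filter, blocks for the replicate number or the set of sample numbers, only the groups compared, the mean of 5 pupal groups as baseline, and leaving out each library. Library totals of 4403619 to 27242758 counts set the counting precision, and floors cover counting error only.

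By plan, members named were those called in any of 8 comparisons, the highest and lowest per role, and the largest fold change per role. These fold changes were taken in the 2 adult against 30 h comparisons and the pooled pupal one. The plan also took the 3 protease subunits and variant copies above 3 counts. Outside this plan, the other standard subunits were named as well, with their log2 fold changes in adults against 30 h. The members and lists were chosen with earlier results of these data known. The labels do not say that replicates are separate animals or cultures, so p-values measure the spread between libraries. Replicate pairs were compared by chi-square per degree of freedom (86.0 to 913 over 114 pairs of the same group), far above sampling noise. No sequences were printed, and other members of the pattern in the reference were not used here.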

Additional observations from a re-analysis of the deposited data

Results flagged for a closer look

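In groups of 4 to 6 libraries, the highest and the lowest value were compared with the nearest of the others, for the summed level and the core to regulatory ratio in each group and for the 17 called subunits in adults and at 30 h. Such a comparison flags about 1 in 20 groups by chance, and 3 of 90 groups were marked. Prosbeta3 had 570 CPM in gamma adult replicate 5, far above the other 4 gamma adult libraries, which had 101 to 232 CPM. Prosbeta5 had 681 CPM in the same library, against 99.2 to 265 CPM in the others. Prosbeta2 and Rpt5 were at 0 in that library. The core to regulatory ratio was 1.59 in gamma 24 h replicate 2, against 1.18 to 1.27 in the other 4 libraries of that group.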

How the results depend on the processing

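Calls in adults against 30 h numbered 8 in gamma and 16 in alpha-beta neurons. In gamma neurons they were 12 by DESeq2, 5 by limma-voom, 16 with the set of sample numbers as a block, 1 when only the groups compared were fitted, 19 against the mean of the pupal groups and 5 without the 4 adult libraries with under 6000 genes detected, an alternative chosen after seeing the data. In alpha-beta neurons they were 20 by DESeq2, 9 by limma-voom, 21 with the set as a block, 5 with only the groups compared and 28 against the pupal mean. Leaving out 1 library gave 3 to 9 calls in gamma and 9 to 16 in alpha-beta neurons. Apart from the pupal mean, the share of all genes called under each alternative is not given here. These counts therefore do not tell a change particular to the members from a change in calls over all genes. The alpha-beta trend gave 1 call by limma-voom and the gamma trend 1 by DESeq2. Gamma against alpha-beta pupae gave 3 calls by DESeq2, 2 by limma-voom, 2 with the set as a block, 3 with only the groups compared and 0 to 1 with 1 library left out. Gamma against alpha-beta adults gave 2 calls by DESeq2, 0 by limma-voom, 0 with only the groups compared, 0 without the 4 libraries and 0 to 1 with 1 library left out. The median core to regulatory ratio was 0.729 without dividing by length and 1.07 from sums of CPM per kb. Core subunits have coding lengths of 603 to 846 bp and regulatory subunits of 792 to 3087 bp, so dividing by length raises the ratio. The cause of the changes in the calls was not tested. For single called genes, 357 values under the alternatives stayed on the same side of the threshold, 117 did not pass it and 0 reversed.

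The fit with the replicate number as a block (replicate block) called 12 members in gamma and 19 in alpha-beta neurons in adults against 30 h, and 2 in gamma against alpha-beta pupae. Libraries with the same replicate number had mean correlations of 0.0294 to 0.112, and other pairs of the same groups -0.0279 to -0.0071. Libraries of the same set had mean correlations of 0.0305 to 0.113, and other pairs -0.0281 to -0.0074. The same-number means were small but above those of the other pairs in each comparison. Single pairs ranged from -0.0499 to 0.197 by replicate number and from -0.0826 to 0.197 by set, so some lay below 0. The labels do not say that either number pairs the samples, and the 12-group fit used no block. Under limma-voom the median log2 fold change of all genes in alpha-beta adults against 30 h was -0.47, against -0.16 by edgeR. The median of the differences gene by gene was -0.14.

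Of the variant copies' values 322 of 406 were 0, and a relation of these zeros to library depth was not tested.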
